A study of Mus musculus with 2 samples.

Results

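The 10 nuclear genes of the glycerol phosphate shuttle and the malate-aspartate shuttle were followed in fast and slow mouse muscle fibres, among 23458 genes that had a probe on the array. Members were taken as the gene probes whose RefSeq accession belongs to Gpd1, Gpd1l or Gpd2 (3 genes, glycerol phosphate shuttle) or to Mdh1, Mdh2, Got1, Got2, Slc25a11, Slc25a12 or Slc25a13 (7 genes, malate-aspartate shuttle), which gave 19 probes of 33763 with a gene name. All 10 genes had a probe well above background on both arrays, so no member was lost to the filter on dim signals. The data are 2 single-colour arrays, each hybridised with Cy3-labelled RNA from pooled single fibres. The fast pool held 4447 fibres without GFP from the extensor digitorum longus (EDL), a toe extensor made mostly of fast fibres, while 1659 fibres that showed GFP, taken from the slow-rich soleus of the calf, formed the slow pool. Every fibre came from the same 8 male mice aged 6 to 8 weeks, which were GFP-Myh7 heterozygous (G/+), so that slow fibres were recognised by fluorescence linked to the slow myosin gene Myh7 and both pools carried the GFP allele. For the slow sample 1 label (tissue) gives the EDL but the source name and the protocol give the soleus, which was followed here. Effects of the muscle and of the fibre type cannot be told apart, as they changed together.

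Glycolysis reduces cytosolic NAD+ to NADH, and the inner mitochondrial membrane does not let NADH pass, so its electrons enter mitochondria through shuttles. In the glycerol phosphate shuttle, cytosolic glycerol-3-phosphate dehydrogenase (Gpd1) passes electrons from NADH to dihydroxyacetone phosphate, and a flavoprotein on the outer face of the inner membrane (Gpd2) hands them from glycerol 3-phosphate to ubiquinone. In the malate-aspartate shuttle, cytosolic malate dehydrogenase (Mdh1) makes malate from oxaloacetate, the carrier Slc25a11 takes malate in against 2-oxoglutarate, Mdh2 remakes NADH inside, and the aspartate transaminases Got1 and Got2 together with an aspartate-glutamate carrier, Slc25a12 (aralar) or Slc25a13 (citrin), close the circle. The first route is known as a fast one of high-glycolytic muscle that bypasses respiratory complex I, and the second as the main route of heart and other oxidative tissues.

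Promoter sequence was drawn from RefSeq (build GRCm38.p6) for the members with the largest differences between the pools. The table held windows for 9 of the 10 genes, and Gpd1 was not among them. Shown are the 250 bases before each annotated start, 5′ to 3′ on the gene's strand, with CpG dinucleotides in capitals. Gpd2 has windows at chr2:57237428-57237677 and chr2:57238132-57238381 on the plus strand, 1 for each of its annotated starts. Mdh1 lies at chr11:21571935-21572184 and Slc25a13 at chr6:6217174-6217423, both on the minus strand. Gpd2 is shown because it had the largest difference towards fast fibres of all members, and Mdh1 and Slc25a13 because they were the members higher in slow fibres.
Gpd2, upstream start: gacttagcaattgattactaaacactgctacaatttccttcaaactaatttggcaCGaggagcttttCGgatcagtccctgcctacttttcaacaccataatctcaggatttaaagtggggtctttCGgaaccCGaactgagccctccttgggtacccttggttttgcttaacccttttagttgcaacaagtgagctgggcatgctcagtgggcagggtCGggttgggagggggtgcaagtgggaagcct
Gpd2, downstream start: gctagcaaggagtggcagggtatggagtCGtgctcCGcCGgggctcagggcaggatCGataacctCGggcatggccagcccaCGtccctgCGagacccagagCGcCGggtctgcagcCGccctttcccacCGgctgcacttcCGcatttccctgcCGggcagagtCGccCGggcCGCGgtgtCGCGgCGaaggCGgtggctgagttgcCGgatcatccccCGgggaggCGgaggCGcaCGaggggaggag
Mdh1: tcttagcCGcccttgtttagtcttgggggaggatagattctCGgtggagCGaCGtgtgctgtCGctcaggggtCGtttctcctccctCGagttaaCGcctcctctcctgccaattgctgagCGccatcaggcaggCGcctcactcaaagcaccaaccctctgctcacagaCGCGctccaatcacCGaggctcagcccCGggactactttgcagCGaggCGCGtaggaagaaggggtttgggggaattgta
Slc25a13: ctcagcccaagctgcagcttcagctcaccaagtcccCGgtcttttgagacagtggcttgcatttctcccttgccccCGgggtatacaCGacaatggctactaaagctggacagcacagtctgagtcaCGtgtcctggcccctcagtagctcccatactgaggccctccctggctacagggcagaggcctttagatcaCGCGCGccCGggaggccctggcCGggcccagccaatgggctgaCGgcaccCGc

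The 2 Gpd2 windows were unlike in base composition. The upstream window was 48.8% G or C with 5 CpG and the downstream one 71.2% with 26 CpG, against a median of 52.4% (quartiles 45.2 and 61.2) and 6 CpG over all 32851 windows. Mdh1 stood at 59.2% with 17 CpG and Slc25a13 at 62.8% with 11 CpG, within or just above the upper quartile. In all, 4 motifs of muscle and mitochondrial factors were searched on both strands of all 10 member windows, namely the E-box CAGCTG, the ERR half-site AAGGTCA, the MEF3 site TCAGGTT and the MEF2 consensus. None of these letters occurred in the 4 sequences shown. The matches in the other windows were an AAGGTCA in Got1 and a CAGCTG in Got2, motifs that 4.08% and 13.0% of all windows hold. The other motifs occurred in 3.49% (MEF3) and 2.92% (MEF2) of all windows.

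Of 59305 gene spots, 52.3% (fast array) and 50.9% (slow array) were detected, that is, flagged as well above background, and none was saturated. Values are the scanner software's processed signals in intensity units, and differences are log2 values of slow minus fast after each array was set to its 75th percentile. Each signal carries the error that the software assigns to the spot, which had a median of 0.20 for a log2 difference, while spots of 1 probe printed repeatedly differed with a median SD of 0.05. There was 1 array per group, so no replicate check, no test and no p-value exist for any gene, the number of arrays limits the precision, and a rule of 2-fold stands in for a test. The labels were checked on myosins. Myh7, the slow heavy chain, had signals of 1094 (fast) and 316863 (slow), and Myh4, the type IIB heavy chain, of 160781 (fast) and 57.9 (slow). All 8 slow and all 9 fast fibre markers were past 2-fold in the labelled direction. In pooled RNA, fewer fibres that express a gene and less of its RNA per fibre cannot be told apart.

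The shuttles parted between the fibre types. Gpd1 and Gpd2, the cytosolic and the mitochondrial enzyme of the glycerol phosphate shuttle, had 24.9-fold and 42.1-fold higher signals in fast fibres. The malate-aspartate genes stayed within 2-fold for 5 of 7 members, beside 75.1% of all genes above background on at least 1 array. Slc25a13 was 12.7-fold and Mdh1 2.08-fold higher in slow fibres. Fast fibres exceeded slow fibres by at least 2-fold for 2 of 10 members, beside 14.2% of all 14646 genes above background on at least 1 array, and slow fibres exceeded fast ones as far for 2 of 10, beside 10.7%. With spike-in controls set equal, a scaling that adds 0.42 to every difference, 70.6% of the genes past 2-fold were higher in slow fibres instead of 42.9%, and the same 4 members were past 2-fold in the same directions.

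**Figure D1:**
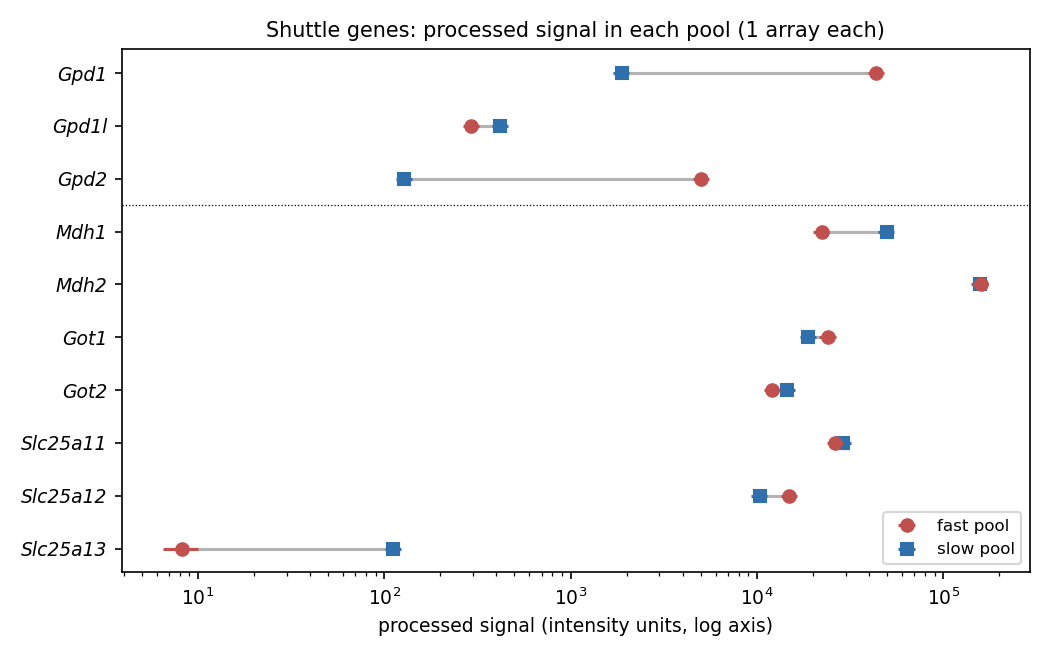
Processed signal of the chosen probe of each shuttle gene (horizontal log axis, intensity units) in the fast pool (red circles) and the slow pool (blue squares), 1 array each, with bars for the software error and a dotted line between the shuttles. Gpd1 and Gpd2 lie far to the right in the fast pool and Slc25a13 in the slow pool, while Mdh2 and Slc25a11 nearly coincide. Probes differ in brightness, so signals of different genes are not comparable.

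Within the glycerol phosphate shuttle, Gpd1 had a signal of 43723 ± 4372 in the fast pool and 1883 ± 188 in the slow pool (software errors). It was high in fast fibres, yet still plainly measured in slow fibres, where the lowest signal well above background on the array was 8.81. The log2 difference was -4.64 with a software error of 0.20. A second Gpd1 probe gave 599 ± 59.9 and 20.2 ± 2.99, a difference of -4.99 with an error of 0.26, so the 2 probes of the gene differed by little more than their errors.

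Gpd2, the calcium-sensitive flavoenzyme that delivers the electrons to ubiquinone, had a signal of 5028 ± 503 in the fast pool and 128 ± 12.9 in the slow pool. Its log2 difference of -5.39, with an error of 0.21, was the lowest of the 10 members. Its second probe was measured in the fast pool only, at 39.2 ± 4.20, and was not well above background in the slow pool, at 3.21 ± 1.86. With the 75th percentile that probe gives a bound, at least 4.76-fold higher in fast fibres, computed against the lowest signal well above background on the slow array. The bound depended on the background correction. Its log2 value of -2.25 became -0.82 under normexp with the 75th percentile and -0.76 under normexp with quantile normalization, both within 2-fold.

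Gpd1l, a paralogue of Gpd1 whose protein is best known for its link to the cardiac sodium channel, did not follow it. Its brightest probe gave 294 ± 29.4 in fast and 420 ± 42.0 in slow fibres, 1.34-fold higher in slow fibres with a log2 difference of 0.42 and an error of 0.20. Its second probe, close to background at 18.5 ± 2.49 and 15.5 ± 2.52, gave a difference of -0.36 with an error of 0.31, and the third was not detected in either pool. The direction for Gpd1l thus depended on the probe, and by every probe measured it lay within 2-fold.

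**Figure D2:**
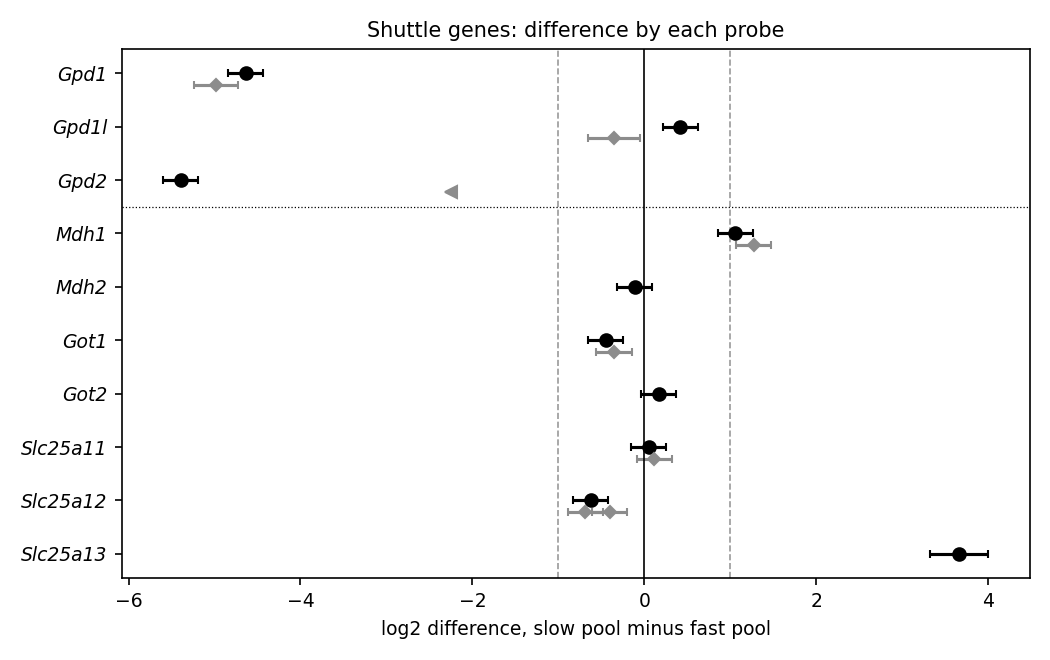
Log2 difference of slow minus fast pool (horizontal axis) for every probe of each shuttle gene, with the chosen probe in black, other probes measured on both arrays as grey diamonds, bars for the software error and dashed lines at 2-fold. The grey triangle is the bound of the second Gpd2 probe at -2.25, and the third Gpd1l probe, below background on both arrays, is not drawn. By the chosen probes, Gpd1 and Gpd2 stand at -4.64 and -5.39, Slc25a13 at 3.66, and the other members between -0.62 and 1.06.

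Of the malate-aspartate enzymes, Mdh1, which oxidises cytosolic NADH, had a signal of 22284 ± 2228 in fast and 49729 ± 4973 in slow fibres. It was higher in slow fibres by a log2 difference of 1.06 with an error of 0.20. Its second probe gave 20027 and 51827, a difference of 1.27, so both probes were past 2-fold. The first fell just short of 2-fold in the authors' table, at 0.95, and with the percentile taken over probes detected on both arrays, at 0.999.

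Mdh2, the mitochondrial enzyme shared with the citric acid cycle, was almost equal in the pools, with 158971 ± 15897 (fast) and 157265 ± 15727 (slow). The difference of -0.11 was smaller than its error of 0.20. It was above 0 under 3 settings, at 0.35 with quantile normalization, 0.31 with normexp and quantile normalization, and 0.31 with spike-in scaling.

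Got1, the cytosolic aspartate transaminase, gave 24064 ± 2406 and 18893 ± 1889 in the fast and slow pools, and by its second probe 3020 and 2531. The differences of -0.45 and -0.35 were larger than the software error of 0.20 and within 2-fold, and spike-in scaling brought them to -0.03 and 0.07. Got2, its mitochondrial counterpart, gave 12078 ± 1208 and 14507 ± 1451, a difference of 0.17 that was smaller than its error of 0.20 and above 0 under all 9 ways of scaling and background correction. The RNA signals of both transaminase genes therefore stood within 2-fold, and enzyme amounts were not measured.

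The carriers of the malate-aspartate shuttle went 3 ways. Slc25a11, which exchanges malate for 2-oxoglutarate, gave 26272 ± 2627 and 29087 ± 2909, and 5516 and 6391 by its second probe. Its differences of 0.05 and 0.11 were below the software error of 0.20, and the first was below 0 in the authors' table, at -0.06, and with the percentile over detected probes, at -0.01.

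Slc25a12, the aspartate-glutamate carrier of muscle, heart and brain, had a signal of 14878 ± 1488 in fast and 10329 ± 1033 in slow fibres. It was 1.54-fold higher in fast fibres, with a log2 difference of -0.62 and an error of 0.20. The other probes gave -0.40 and -0.69, so 3 of 3 probes were lower in slow fibres and none was past 2-fold. Under spike-in scaling the 3 differences were -0.21, 0.02 and -0.27.

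Slc25a13, the carrier best known from liver, went the other way. Its only probe gave 8.26 ± 1.77 in the fast pool and 112 ± 11.3 in the slow pool, a log2 difference of 3.66 with an error of 0.34. The fast value was close to background, since 0.536% of spots well above background on that array were dimmer and the lowest such signal was 7.21. Before background subtraction the spot had a median pixel intensity of 41 over a local background of 29.5 on the fast array, and 156 over 27 on the slow array. Under normexp, a background correction that draws dim signals together, the difference was 1.40 with the 75th percentile and 1.45 with quantile normalization, so that the fold was 2.65 at its smallest and stayed past 2-fold. The level of the gene in fast fibres therefore rests on 1 dim spot, whereas its signal in slow fibres was clear of background.

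**Figure D3:**
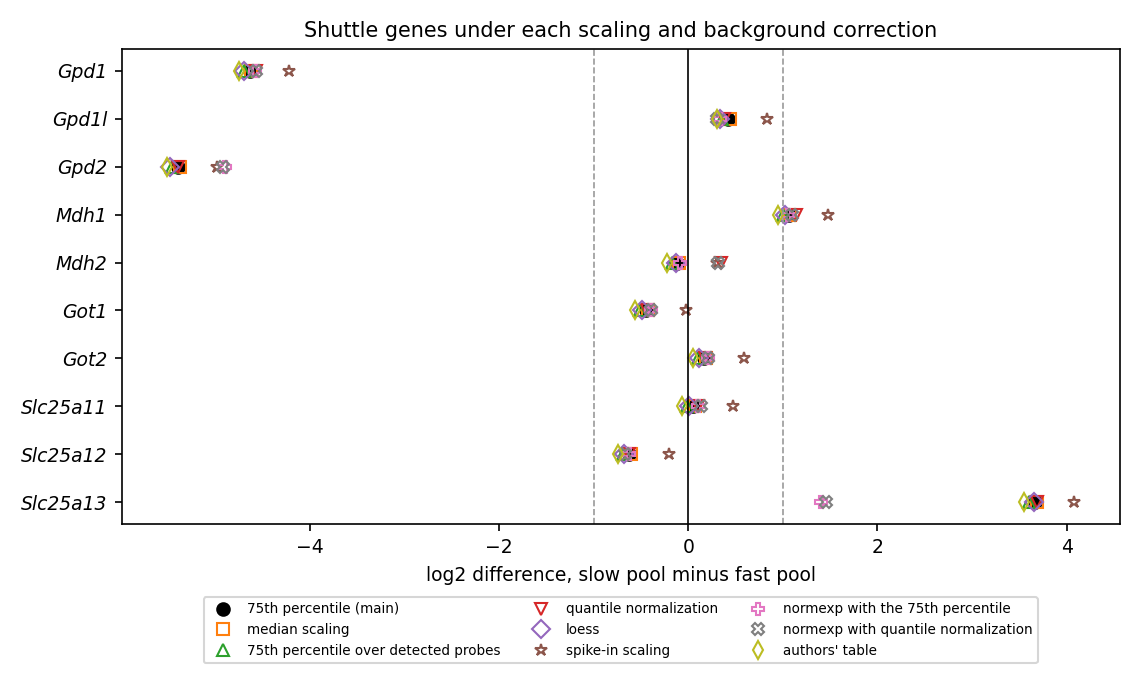
Log2 difference of slow minus fast pool for the chosen probe of each shuttle gene under the 9 ways of scaling and background correction, each with its own symbol (the value as reported is the filled black circle), with dashed lines at 2-fold. Gpd1 spans -4.75 to -4.22 and Gpd2 -5.51 to -4.90, Slc25a13 moves to 1.40 and 1.45 under the normexp settings, and Mdh1 lies on either side of the 2-fold line.

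Set against each other, the shuttles differed by more than any scaling moved them. The median log2 difference was -4.64 over the 3 glycerol phosphate genes (range -5.39 to 0.42) and 0.05 over the 7 malate-aspartate genes (range -0.62 to 3.66), beside 0.05 for all 12852 genes with both arrays measured. The gap between the shuttle medians was -4.68, or 25.7-fold towards fast fibres for the glycerol phosphate shuttle. A gap of this kind does not change when an array is multiplied by a constant, and it ran from -4.77 to -4.68 over the 9 settings. With 3 genes on the first side, its median is the value of Gpd1. Without Gpd1l the gap was -5.06, and with means in place of medians it was -3.74. Each pairing of Gpd1 or Gpd2 with a malate-aspartate gene, 14 in all, was lower on the glycerol phosphate side, by 4.01 at least and 9.06 at most on the log2 scale. Gpd1l was lower than its partner in 2 of 7 pairings, those with Mdh1 and Slc25a13. No test exists for these gaps, since each comes from the same 2 arrays.

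Partners within a shuttle were compared in the same manner, by the gap between their differences. The enzymes that meet cytosolic NADH in the 2 shuttles, Gpd1 and Mdh1, stood 51.8-fold apart in how they differed between the pools (gap -5.70, error 0.29). The mitochondrial enzymes Gpd2 and Mdh2 stood 38.9-fold apart (gap -5.28, error 0.29). Inside the glycerol phosphate shuttle, cytosolic Gpd1 and mitochondrial Gpd2 were much closer, with a gap of 0.76 and an error of 0.29, which shrank to 0.32 under normexp with the 75th percentile. Inside the malate-aspartate shuttle, cytosolic Mdh1 was shifted towards slow fibres relative to Mdh2 (gap 1.17, and 0.78 under normexp with quantile normalization) and cytosolic Got1 towards fast fibres relative to Got2 (gap -0.61, error 0.29). The cytosolic enzymes were therefore not shifted as a group.

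Paralogues parted in both shuttles. Gpd1 and Gpd1l stood 33.2-fold apart (gap -5.05, error 0.29). The aspartate-glutamate carriers Slc25a13 and Slc25a12 stood 19.5-fold apart (gap 4.29, error 0.40), and at least 4.10-fold over the 9 settings, the lowest value being under normexp with the 75th percentile. The oxoglutarate carrier Slc25a11 and Slc25a12 differed less, with a gap of 0.67.

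Among the 12852 genes measured on both arrays, Gpd2 held rank 22 and Gpd1 rank 42 when ordered from the largest difference towards fast fibres, and Slc25a13 held rank 72 from the slow end. Mdh1 held rank 1126 from the slow end. The remaining 6 members lay between the 19.8% and the 72.5% point of the order from the fast end, with Slc25a12 lowest, then Got1, Mdh2, Slc25a11, Got2 and Gpd1l. Neighbours in that order from Mdh2 to Got2 did not differ by more than their software errors. The 4 genes whose difference was nearest to that of Gpd1, a likeness over 2 arrays only, were Maf, a large Maf transcription factor, at -4.62, Smox, spermine oxidase, at -4.65, Kazald1 at -4.62 and Gimap9 at -4.65. Gimap9 moved to -2.90 and Kazald1 to -3.68 at their nearest to 0, whereas the chosen Gpd1 probe reached -4.22. Slc25a13, whose rank rests on a dim signal in the fast pool, moved to 1.40 under normexp with the 75th percentile.

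The pathways on either side of the shuttles were described by lists of their genes. Of 12 genes of glycolysis, the source of the cytosolic NADH, 10 were past 2-fold in fast fibres and none in slow fibres, with a median difference of -1.28. By the chosen probes, Eno3, the muscle enolase, had the largest difference towards fast fibres, -2.50, with signals of 149031 and 28246. Pygm, muscle glycogen phosphorylase, followed at -2.21. Each of the 12 was closer to 0 than Gpd1 and Gpd2, and over the 9 settings 5 to 11 were past 2-fold, 5 under spike-in scaling. The lactate and pyruvate list, the alternative outlet for NADH, held 6 genes above background, of which 2 were past 2-fold in fast and 1 in slow fibres, and the 5 with both arrays measured had a median of -0.72. Slc16a3, the lactate exporter of glycolytic cells, was 36.2-fold higher in fast fibres (signal 21349.5 fast against 632 slow, an order kept below) and Bsg, the chaperone of lactate carriers, 2.21-fold, or a log2 difference of -0.72 under spike-in scaling. Ldhb, the lactate dehydrogenase subunit of oxidative tissues, was 16.4-fold higher in slow fibres (6464 against 113195). Ldha, another lactate dehydrogenase gene, was counted in the glycolysis list instead and went the other way. It was 2.34-fold higher in fast fibres (125882 against 57490), at -0.81 when nearest to 0 and at -2.82 by its second probe. Ldha was named after its values were seen. The Slc16a3 difference, -5.18, was of the size of that of Gpd2. The Ldhb difference, 4.03, was near the 3.66 of Slc25a13 with the 75th percentile, but the 2 were far apart under normexp. Over the 9 settings Ldhb was 3.92 at its lowest, whereas Slc25a13 fell to 1.40 under normexp with the 75th percentile.

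Other enzymes that make or use glycerol 3-phosphate had differences in both directions. Of 11 genes of glycerol 3-phosphate use and the lipid synthesis that follows it, none was past 2-fold in fast fibres and 3 were in slow fibres, and the median of the 10 with both arrays measured was 0.38. Of these 10, 4 had the higher signal in fast fibres, from Pgp, a phosphatase, at -0.98 and Lpin1, a phosphatidate phosphatase, at -0.90 to Agpat1 at -0.61 and Gpat3 at -0.28, named here after their values were seen. Agpat2, an acyltransferase of triglyceride synthesis, was 6.85-fold higher in slow fibres, with differences of 2.78 and 2.91 by its 2 probes. Gk, glycerol kinase, was dim at 22.1 and 60.8, with a difference of 1.36, which was 0.61 under normexp with the 75th percentile, and 0.39 by its second probe. Under the 9 settings 0 to 2 of the list were past 2-fold in fast fibres.

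Enzymes that, like Gpd2, pass electrons to ubiquinone had a median difference of 0.15 over 8 measured genes, with 1 past 2-fold in fast and 2 in slow fibres. Sqor, which oxidises sulfide, was 4.21-fold higher in fast fibres (3058 against 778), by -2.07 and -2.09 for its 2 probes. Etfdh, which takes electrons from fatty acid oxidation, was 2.58-fold higher in slow fibres (5102 against 14081), and Prodh, proline dehydrogenase, 3.70-fold (140.3 against 555).

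Enzymes of malate, oxaloacetate, aspartate and glutamate, the metabolites of the second shuttle, had a median of -0.21 over 19 measured genes, above 0 under spike-in scaling at 0.20. Of these, 6 were at least 2-fold higher in fast and 1 in slow fibres, and 12 were within 2-fold. Gpt2, the mitochondrial alanine transaminase, was 14.4-fold higher in fast fibres, with signals of 3563 and 266 and differences of -3.84 and -4.10 by its probes. Pck2, the mitochondrial phosphoenolpyruvate carboxykinase, was at 70.3 and 20.2, a difference of -1.90 that was -0.66 at its nearest to 0. Adss, adenylosuccinate synthetase of the non-muscle type, was 2.15-fold higher in slow fibres, or 0.80 on the log2 scale at its lowest. Got1 and Got2, at -0.45 and 0.17, lay far from Gpt2.

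Of 23 other mitochondrial metabolite carriers measured, 2 were at least 2-fold higher in fast and 5 in slow fibres, with a median of 0.15, and over the 9 settings 4 to 7 were past 2-fold in slow fibres. Ucp2, a relative of the uncoupling protein, was 5.10-fold higher in slow fibres from a dim 17.6 in the fast pool to 96.3, a difference of 2.35 that was 1.05 under normexp with the 75th percentile. Slc25a23, an ATP-Mg/phosphate carrier, was 4.48-fold higher (248 against 1189.6). Slc25a24 and Slc25a25, of the same carrier type, had 2.93-fold and 2.29-fold higher signals in fast fibres, at -0.45 and -0.78 when nearest to 0. The difference of Slc25a13, 3.66, was above that of each of the 23 in these values, while under normexp with the 75th percentile it was 1.40.

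**Figure D4:**
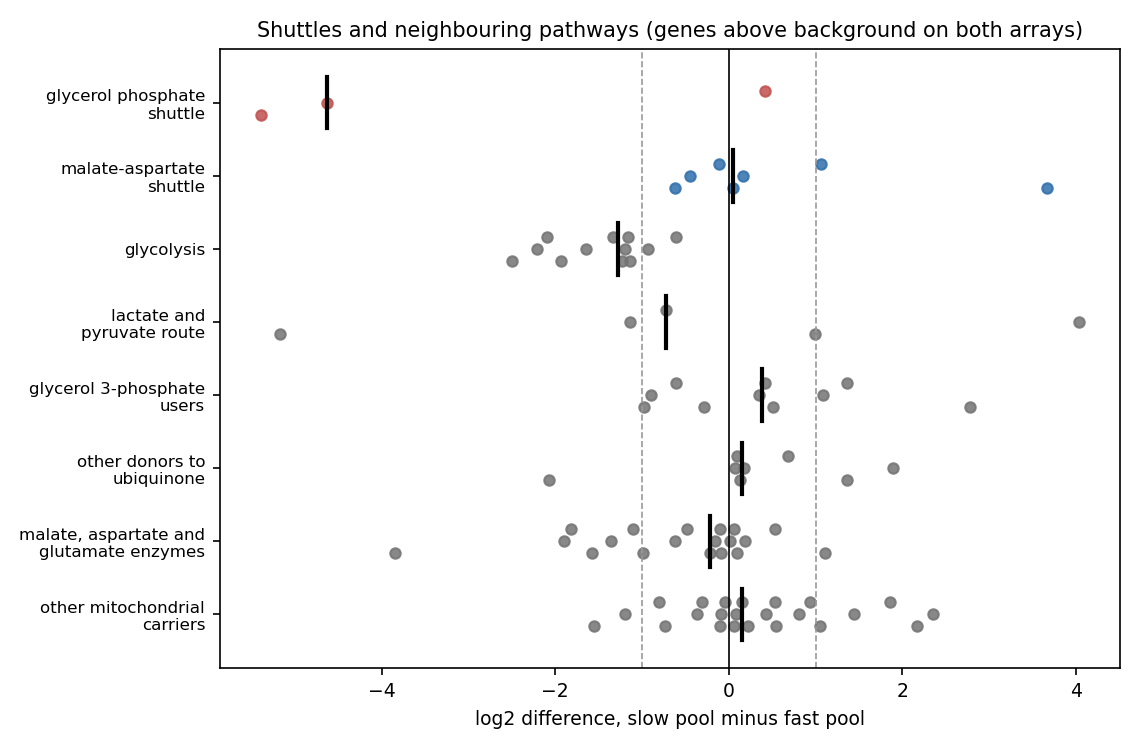
Log2 difference of slow minus fast pool for each gene measured on both arrays, by list (rows), with a black bar at the list median, dashed lines at 2-fold, the glycerol phosphate shuttle in red and the malate-aspartate shuttle in blue. Medians are -4.64 and 0.05 for the shuttles, -1.28 for glycolysis, -0.72 for the lactate and pyruvate route and between -0.21 and 0.38 for the remaining lists. Dots are set at 3 heights within a row for legibility only.

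Markers of other cell types also differed between the pools, and their part in the shuttle differences was not tested. Levels here are signals in units of each array's 75th percentile, summed over a list. Fast fibres exceeded slow ones by 2-fold or more for 8 of 10 endothelial markers (summed level 24.1 fast, 5.81 slow, median difference -1.58), with Cldn5 at -3.90 and Emcn at -1.86. Fibroblast markers were so for 9 of 10 (173 and 43.3, median -1.79), with Col1a1 at -2.18 and Dcn at -2.03. Erythrocyte markers were so for 6 of 6 above background (95.8 and 35.9, median -1.19), with Hba-a2 at -1.46 and Hba-a1 at -1.43. Over the 9 settings, 4 to 8 endothelial, 6 to 9 fibroblast and 2 to 6 erythrocyte markers were past 2-fold in fast fibres, with 6, 7 and 2 under spike-in scaling.

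Of 6 immune markers above background, 2 were past 2-fold in fast fibres (16.9 and 4.93, median -0.91), Cd68 at -2.14 and Mrc1 at -1.58, and Ptprc, Adgre1, Lyz2, C1qa and Cd79a were not above background on either array. Schwann cell markers had 4 of 7 past 2-fold in fast fibres, including Prx at -1.99, and 2 in slow fibres, Pmp22 at 1.97 and Mbp at 2.32 (9.40 and 19.8, median -1.09), with Mbp at 0.85 under normexp with the 75th percentile. Over the 9 settings, 2 to 4 Schwann cell markers were past 2-fold in fast and 1 to 2 in slow fibres. Smooth muscle and pericyte markers had 3 of 7 past 2-fold in fast and 1 in slow fibres (793 and 721, median -0.91). Nearly all of both sums was Acta2, with signals of 139689 (fast) and 136890 (slow) and a difference of -0.13. The sums therefore say little about the other markers, and 6 of the 7 differences were below 0. Rgs5 stood at -1.61, Notch3 at -1.27 and Cspg4 at 1.24. Cspg4 was at 0.90 under normexp with the 75th percentile, and Notch3 at -0.85 when nearest to 0. Satellite cell markers had 1 of 3 above background past 2-fold in fast fibres, Vcam1 at -1.71, or -0.90 when nearest to 0 (5.39 and 5.93, median 0.28), and Myf5 and Calcr were not above background.

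Adipocytes are a cell type known for abundant Gpd1, so their markers were read beside it. Of 10 markers, 5 (Adipoq, Plin1, Cidec, Retn and Ucp1) were not above background in either pool and 5 were above it in at least 1. Lep had signals of 46.9 (fast) and 58.1 (slow), Pparg 123 and 113, and Plin4 7829 and 12789, while Cfd was above background in the fast pool alone, at 13.7. Fabp4, which endothelial cells also express, was past 2-fold in fast fibres at -1.20, or -0.78 when nearest to 0. The part of adipocyte RNA in the difference of Gpd1 was not tested. The summed level of the list was 63.3 (fast) and 75.8 (slow). Nearly all of it was Plin4 and Fabp4, whose differences of 0.61 and -1.20 went opposite ways. The sum therefore says little about the other markers. The median of the 4 genes with both arrays measured was -0.01, between -0.12 and 0.41 over the 9 settings.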

How the data were processed

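RNA of 1 pool per group was hybridised to arrays of 1 slide read in 1 scan, labelled from 0.1 µg of total RNA. Per the file headers and the processing notes of the submitters, version 12.0.3.1 of Agilent Feature Extraction made the deposited spot intensities by background subtraction and detrending inside each array, with no step between arrays. These deposited files also give software errors, median pixel intensities of spot and background, and other 0 or 1 flags. The authors' deposited value table holds intensities on a linear scale that equal the processed signal times 2.83 (fast) and 2.45 (slow), with column medians of 30.1 and 27.1 and no log or centring, and what the factors scale to is unknown.

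Control spots and 159 flagged gene spots were removed, repeated spots averaged (56596 probes), and log2 signals taken minus each array's 75th percentile over gene spots. Accessions were matched without versions to RefSeq (GRCm38.p6, names only, as the design uses mm9), naming 59.7% of probes. The brightest unsaturated probe with a signal above background in either pool stands for a gene. The size rule was checked on simulated arrays. Normexp (offset 50, on median intensities, as the mean column is absent), quantile normalization and loess (span 0.3) used limma 3.58.1 in R 4.3.3, and all else Python 3.11.15. The shuttle genes and the 16 other lists were chosen with earlier results of these data known. Named are all members with every probe, Myh7 and Myh4, up to 2 genes per direction past 2-fold in each list, and the 4 nearest to Gpd1. Some genes that this rule would name are not reported here. The motifs were chosen after the values were seen. Depth does not apply to arrays, and nothing covers variation between animals.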

Additional observations from a re-analysis of the deposited data

How the results depend on the processing

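Of the 10 shuttle genes, Gpd1 and Gpd2 were past 2-fold in fast fibres under every setting tried. Slc25a13 was so in slow fibres under every scaling and background correction. The second Gpd2 probe, taken alone, was within 2-fold under normexp, at -0.82 with the 75th percentile and -0.76 with quantile normalization. A 1.5-fold rule added Slc25a12 in fast fibres, for a count of 3. The count in slow fibres dropped to 1 in the authors' table, with the 75th percentile over probes detected on both arrays and under a 3-fold rule, where Mdh1 fell short. The gap between the shuttle medians was -5.06 without Gpd1l and -3.74 with means. Over all genes, the count past 2-fold in fast fibres (2080) was 1300 under spike-in scaling, 988 under normexp with the 75th percentile and 984 under normexp with quantile normalization, and 3368 and 1058 under 1.5-fold and 3-fold rules. The count in slow fibres (1562) was 3122, 785, 772, 3099 and 763 under the same settings, and 2486 with no filter on dim probes. The median of all genes moved by 0.42 under spike-in scaling and by -0.11 in the authors' table. The cause of these changes was not tested, other than the stated change of rule. Of 530 values of 53 named genes under alternatives, 121 moved by more than their software error and none that was past 2-fold changed sign. Signal over background limits Slc25a13 in fast fibres and the second probes of Gpd1 and Gpd2 in slow fibres. No paired analysis was possible because each group held 1 sample, and for the same reason no sample could be left out.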

Other observations

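Carriers with calcium-binding EF hands were found on both sides of the comparison. Slc25a13 and Slc25a23 were higher in slow fibres, by 3.66 and 2.16 on the log2 scale, whereas Slc25a24 and Slc25a25 were higher in fast fibres, at -1.55 and -1.19, and Slc25a12 stood at -0.62. This grouping was made after the values were seen. Under normexp with the 75th percentile, Slc25a13 stood at 1.40.

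The 2 alanine transaminase genes gave unequal pictures by probe. Gpt, the cytosolic form, gave a difference of 0.10 by its brightest probe and -2.41 by its other probe, while Gpt2 gave -3.84 and -4.10. Gpt was named after its values were seen.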
